A study of Homo sapiens with 12 samples.

Results

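The genes described here are 8 autophagy genes, *TP53INP1*, *TP53INP2*, *WIPI1*, *ATG9B*, *MAP1LC3B*, *MAP1LC3B2*, *GABARAPL1* and *SQSTM1*, out of 30358 genes listed by the same Ensembl identifier in the tables of both cell lines. They were selected on their measured response to PTDSS1 inhibition in these same libraries, including the opposite direction of *TP53INP1* between the lines, so their differences between treatments are given as a description with no test. All 8 were found by name in both tables. The name "induced" held for all 8 in KYSE30 but not for *TP53INP1* and *MAP1LC3B2* in the other line, where both were lower with the inhibitor. There, *MAP1LC3B2* rested on 38 counts in all with DMSO and 16 with PTDSS1i, too few to pass the filter on low counts.

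RNA-seq of poly-A transcripts covered 2 cell lines, the esophageal squamous cell carcinoma (ESCC) line KYSE30 and cells labelled U138MG, a glioblastoma line. PTDSS1 is an enzyme that makes phosphatidylserine, and PTDSS1i is its small-molecule inhibitor DS55980254. For each line, 3 replicates received PTDSS1i at 100 nM for 48 h and 3 received the vehicle DMSO, which gives 12 libraries, all of wild-type genotype according to the labels. The comparison asks how the transcripts of each line respond to the inhibitor. KYSE30 is batch 1 and U138MG batch 2 in the labels, and the lines were counted in separate tables that list different sets of genes, so line, batch and counting cannot be told apart.

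The libraries held 18800932 to 26514658 counts. Normalized CPM is the count relative to library size after TMM scaling, and 3 counts, taken as the floor, equal 0.160 CPM in the shallowest library. Levels of the cell type markers are CPM by library total, without TMM scaling. In the libraries labelled U138MG, the 8 squamous markers on the list summed to 6921 to 7717 CPM with DMSO and 1773 to 1896 with PTDSS1i. In KYSE30 they summed to 921 to 988 and 1169 to 1201 CPM. With DMSO, *KRT14* and *KRT6A* were under 1 CPM with the U138MG label. In KYSE30 *KRT5* (0.0608) and *KRT14* (0.355) were under 1 CPM with DMSO, and *CDH1* (514) and *EPCAM* (280) were the highest of the 8. The 11 glial and mesenchymal markers summed to 874 to 901 and 448 to 464 CPM in the U138MG-labelled libraries. The 9 listed in KYSE30 summed to 196 to 240 and 169 to 170 CPM. With DMSO and the U138MG label, *SPARC* was at 713 ± 13.1, *FN1* at 75.8 ± 4.21, *COL1A1* at 54.5 ± 1.41 and *SOX2* at 38.9 ± 1.89, while *VIM* was at 0.206 ± 0.0662 (SD, n = 3), *GFAP* at 2.36 ± 0.183, and *S100B* and *OLIG2* at 0 in all 6 libraries. High keratins (*KRT5* 1470 ± 83.4, *KRT15* 4861 ± 330) and near-absent *VIM*, *S100B* and *OLIG2* go against a glioblastoma label although *SPARC* and *COL1A1* were higher than in KYSE30, and the labels give a KYSE30 growth medium for the same samples, so the name U138MG is used below only as the label. The marker sums differed between treatments as given, and their part in the results below was not tested. The tables were normalized separately, which holds for every level set across the lines below. *PTDSS1* itself was at 164 ± 12.8 normalized CPM with DMSO and 159 ± 4.95 with PTDSS1i in KYSE30, with overlapping libraries, and at 92.8 ± 3.23 and 71.1 ± 2.86 in U138MG-labelled libraries.

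Autophagy encloses cytoplasm, protein aggregates or organelles in a double membrane, the autophagosome, and delivers them to the lysosome. Growth of that membrane needs lipid supplied by ATG2 and ATG9 proteins, a phosphatidylinositol 3-phosphate signal read by the PROPPIN proteins, and small ubiquitin-like ATG8 proteins (the LC3 and GABARAP families) that are conjugated to phosphatidylethanolamine, a lipid that cells can make from phosphatidylserine. Receptors such as p62 bind both the cargo and ATG8, and cells under nutrient or endoplasmic reticulum (ER) stress raise the transcripts of many of these proteins.

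The members are protein-coding genes. In GRCh38 coordinates of GENCODE 29, *TP53INP2* lies at chr20:34704290-34713439 on the plus strand, *WIPI1* at chr17:68420948-68457513 on the minus strand, *ATG9B* at chr7:151012209-151024499 on the minus strand, *MAP1LC3B* at chr16:87383995-87404779 on the plus strand and *SQSTM1* at chr5:179806398-179838078 on the plus strand. *GABARAPL1* and *MAP1LC3B2* share chromosome 12, at 10212458 to 10223130 and 116548105 to 116576448, both on the plus strand. *MAP1LC3B* and *MAP1LC3B2* are near-identical copies. Their coding sequences have 378 bases each, of which 99.5% are identical, and they differ at 2 positions, C30G and A338G, with *MAP1LC3B* first and positions counted from the A of the start codon. The coding stretches around both differences are shown because these bases are what lets a read over the coding sequence be assigned to either gene. The differing base is in capitals, positions 1 to 60 come first and 308 to 367 second, and all 4 were read from GENCODE transcripts.
MAP1LC3B, 1 to 60: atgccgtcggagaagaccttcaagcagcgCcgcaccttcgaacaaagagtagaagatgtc
MAP1LC3B2, 1 to 60: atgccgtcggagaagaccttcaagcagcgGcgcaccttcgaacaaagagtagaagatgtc
MAP1LC3B, 308 to 367: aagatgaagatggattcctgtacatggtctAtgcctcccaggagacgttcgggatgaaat
MAP1LC3B2, 308 to 367: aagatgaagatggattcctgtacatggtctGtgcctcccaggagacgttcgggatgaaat

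The longest run shared by both coding sequences was 307 bases, and 12.3% of the 100-base stretches of *MAP1LC3B2* transcripts also occur in *MAP1LC3B* transcripts. The counts of *MAP1LC3B2*, which were 28 or fewer in each DMSO library of both lines, are therefore uncertain.

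Promoter windows, 250 bases before to 50 after the RefSeq start site, were held for 7 of the 8 members on GRCh38.p14. They were searched on both strands for sites of stress-responsive transcription factors. The cyclic AMP response element TGACGTCA, bound by CREB and ATF family factors, was in the windows of *TP53INP2* and *GABARAPL1*, 2 of 7 members, and in 2.25% of the 27305 genes with a window. The antioxidant response element core TGACNNNGC was in those of *ATG9B* and *MAP1LC3B*, and in 16.1% of genes. The E-box CACGTG, in 8.77% of genes, its extended form TCACGTGA, in 1.18% and always overlapping it, and the C/EBP-ATF site TGATGCAA, in 1.08%, were in none of the 7 member windows. Such a match describes letters in a window and is not a bound site. *ATG9B* has a second window, shifted by 5 bases, that holds the same match and is not shown. For each of the 4 genes 1 window with a match is shown, with the matched letters in capitals and each read along the strand of its gene. They lie at chr20:34704094-34704393 (plus strand), chr12:10212627-10212926 (plus), chr7:151024450-151024749 (minus) and chr16:87392086-87392385 (plus), in that order.
TP53INP2 promoter: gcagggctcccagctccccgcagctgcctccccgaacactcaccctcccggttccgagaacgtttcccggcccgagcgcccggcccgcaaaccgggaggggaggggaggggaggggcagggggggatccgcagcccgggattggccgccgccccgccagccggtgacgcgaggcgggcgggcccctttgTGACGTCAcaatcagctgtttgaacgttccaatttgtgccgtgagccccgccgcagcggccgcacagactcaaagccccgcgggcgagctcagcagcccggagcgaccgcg
GABARAPL1 promoter: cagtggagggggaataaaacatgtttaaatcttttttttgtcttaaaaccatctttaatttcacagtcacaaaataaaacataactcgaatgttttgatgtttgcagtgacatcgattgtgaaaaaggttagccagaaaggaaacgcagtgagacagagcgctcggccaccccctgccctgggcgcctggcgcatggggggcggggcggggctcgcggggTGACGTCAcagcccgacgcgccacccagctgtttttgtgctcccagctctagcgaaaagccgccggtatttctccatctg
ATG9B promoter: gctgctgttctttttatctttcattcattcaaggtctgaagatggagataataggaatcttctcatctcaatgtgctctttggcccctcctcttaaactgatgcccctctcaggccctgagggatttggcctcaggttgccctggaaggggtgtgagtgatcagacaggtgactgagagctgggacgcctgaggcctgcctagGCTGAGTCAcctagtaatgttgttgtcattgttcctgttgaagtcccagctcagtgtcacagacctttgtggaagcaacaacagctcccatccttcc
MAP1LC3B promoter: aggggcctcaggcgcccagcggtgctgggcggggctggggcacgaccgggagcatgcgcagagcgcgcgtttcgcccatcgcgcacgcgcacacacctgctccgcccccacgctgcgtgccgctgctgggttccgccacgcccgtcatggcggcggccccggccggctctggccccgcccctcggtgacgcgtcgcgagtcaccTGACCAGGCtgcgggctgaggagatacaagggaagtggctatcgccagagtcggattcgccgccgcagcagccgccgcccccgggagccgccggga

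In these windows the cyclic AMP response element began 61 bases before the start site of *TP53INP2* and 30 before that of *GABARAPL1*, and the antioxidant response element core began 47 bases before the start of *ATG9B* and 46 before that of *MAP1LC3B*. The *ATG9B* match is the reverse complement of the searched core.

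In KYSE30 every PTDSS1i library was above every DMSO library for all 8 members, as in 32.1% of the 16389 genes tested (the plot of normalized CPM by library). The log2 fold change was over 1 for 6 of the 8, against 6.43% of all tested genes, with *MAP1LC3B2* just inside that limit at 1.13 and *MAP1LC3B* just outside at 0.94. The median of the 8 was 2.17, while the median of all tested genes was -0.03. In U138MG-labelled libraries 7 of the 8 passed the filter on low counts, and *MAP1LC3B2* did not. There, 6 members were higher in every PTDSS1i library, as in 35.5% of the 17666 genes tested, and *TP53INP1* was lower in every one, as in 35.9% of them. *MAP1LC3B2*, not among the tested genes, was also lower in every PTDSS1i library, at low counts. A log2 fold change over 1 was found for 5 of the 7 members, against 8.36% of all tested genes, with *MAP1LC3B* nearest above that limit at 1.23 and *GABARAPL1* nearest below it at 0.33. Over genes tested in both lines, 2.11% had a log2 fold change over 1 in each, as *TP53INP2*, *WIPI1*, *ATG9B* and *SQSTM1* did. Since the members were selected on this contrast, nothing is read from these shares.

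**Figure D1:**
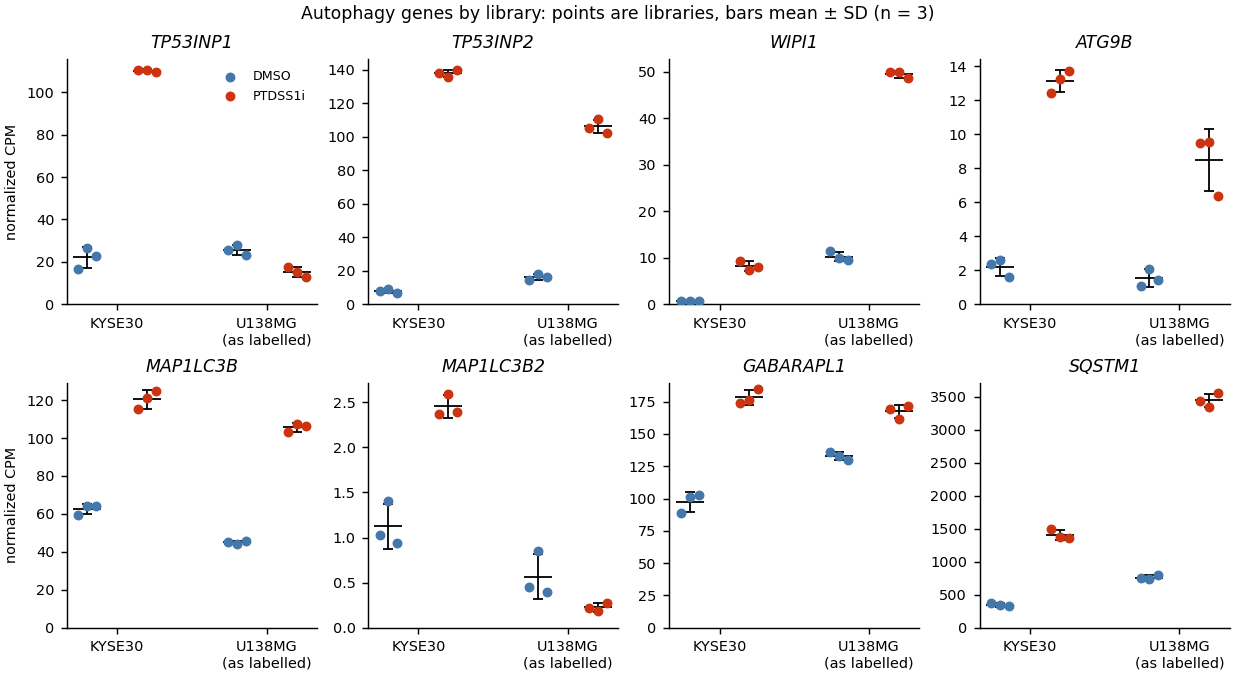
Normalized CPM (vertical axis, linear from 0, own scale per gene) of the 8 genes in each library, with DMSO in blue and PTDSS1i in red for KYSE30 and for the libraries labelled U138MG, where points are libraries and bars the mean ± SD (n = 3). The PTDSS1i points lie above the DMSO points for all 8 genes in KYSE30 and for 6 in U138MG-labelled libraries, with *TP53INP1* (23.0 to 27.8 with DMSO, 12.8 to 17.7 with PTDSS1i) and *MAP1LC3B2* below.

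*TP53INP1* and *TP53INP2* encode related nuclear proteins that move to the cytoplasm and bind ATG8 proteins when autophagy starts, and *TP53INP1* is also a transcriptional target of p53. In KYSE30, *TP53INP1* was at 16.7, 26.5 and 22.9 normalized CPM in the DMSO replicates and at 110.6, 110.5 and 109.5 in the PTDSS1i replicates. The treated libraries lay close together and far above the highest control, a log2 fold change of 2.32 (standard error 0.14). In U138MG-labelled libraries the control level was close to that of KYSE30, at 25.8, 27.8 and 23.0 normalized CPM, but the PTDSS1i replicates had only 17.7, 15.3 and 12.8. Here the groups separated in the other direction, and the log2 fold change was -0.75 (standard error 0.11). The groups of a gene separated upward in KYSE30 and downward in U138MG-labelled libraries for 7.28% of the 13990 genes tested in both. By rank of fold change from the highest, *TP53INP1* was number 114 of 16389 in KYSE30 and number 14619 of 17666 in U138MG-labelled libraries.

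*TP53INP2* had the largest log2 fold change of the 8 in both lines. Its KYSE30 values were 8.01, 9.06 and 6.80 normalized CPM with DMSO and 137.9, 135.8 and 139.7 with PTDSS1i, a 17.4-fold difference (log2 fold change 4.12, standard error 0.08), number 7 among all tested genes. With the U138MG label, DMSO replicates had 14.6, 18.1 and 16.04 and PTDSS1i replicates 105, 111 and 103 normalized CPM, a log2 fold change of 2.70 (standard error 0.06). Neither line had overlapping groups. The balance of the pair moved with them, measured as normalized CPM per kb of exon so that both genes can be compared: *TP53INP2* made up 33.0% ± 5.48 of the signal of the pair with DMSO and 62.7% ± 0.437 with PTDSS1i in KYSE30 (SD, n = 3). In U138MG-labelled libraries its share went from 46.0% ± 2.65 to 90.4% ± 1.33. *TP53INP2* was thus the minor transcript of the pair in each control group and the major in each treated group, whichever way *TP53INP1* differed.

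**Figure D2:**
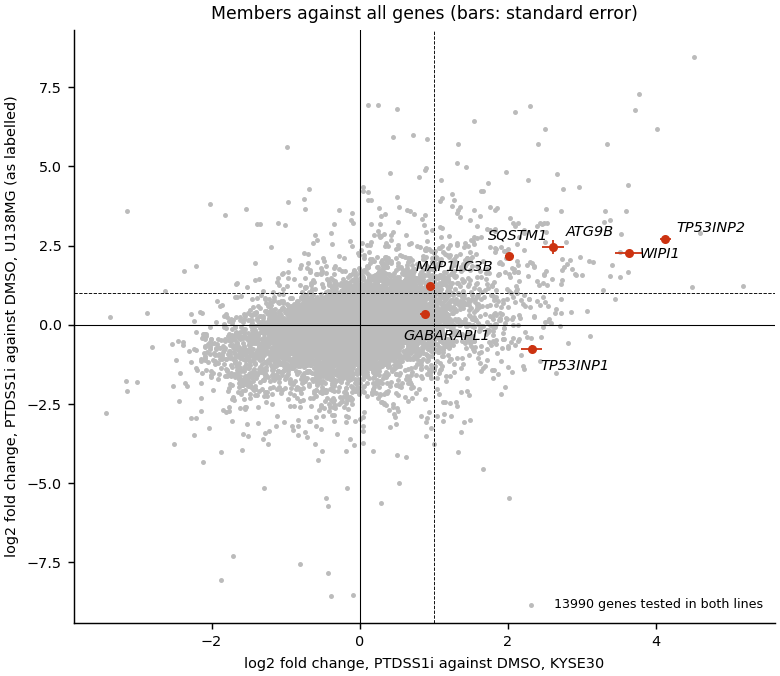
Log2 fold change of PTDSS1i against DMSO in KYSE30 (horizontal) and in the libraries labelled U138MG (vertical) for the 13990 genes tested in both lines (grey) and the 7 members among them (red, bars are standard errors), with dashed lines at 1. *TP53INP2* (4.12 and 2.70) and *WIPI1* (3.63 and 2.28) lie farthest to the right, and *TP53INP1* (2.32 and -0.75) is the member below 0 on the vertical axis.

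*WIPI1* and *ATG9B* act early, when the membrane forms. WIPI1 is a PROPPIN that binds phosphatidylinositol 3-phosphate on the growing membrane, and ATG9B is a paralog of the lipid scramblase ATG9A, which is carried on the vesicles that seed it. *WIPI1* was low in KYSE30 controls, at 0.635, 0.755 and 0.595 normalized CPM from 13 to 15 counts per library, and reached 9.31, 7.33 and 7.96 with PTDSS1i. The log2 fold change was 3.63 (standard error 0.19). The control level was higher with the U138MG label, at 11.4, 9.85 and 9.48 normalized CPM, and PTDSS1i libraries had 49.9, 50.02 and 48.7, a log2 fold change of 2.28 (standard error 0.07). Every KYSE30 value, treated ones included, was below the lowest U138MG-labelled control in these separately normalized tables.

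*ATG9B* was low in every control library. It was at 2.34, 2.62 and 1.57 normalized CPM with DMSO and at 12.4, 13.2 and 13.7 with PTDSS1i in KYSE30, a log2 fold change of 2.61 (standard error 0.14). In U138MG-labelled libraries the values were 1.05, 2.09 and 1.42 with DMSO and 9.51, 9.56 and 6.38 with PTDSS1i, a log2 fold change of 2.46 (standard error 0.22), the largest error of the 7. The third treated library was lower than the other treated ones but still above every control.

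Neither gene became the main member of its family. *WIPI1* went from 0.310% ± 0.0416 to 2.55% ± 0.268 of the PROPPIN signal per kb in KYSE30, and from 6.86% ± 0.559 to 22.6% ± 0.353 in U138MG-labelled libraries (SD, n = 3), where it passed *WIPI2*, which was at 15.9% ± 0.695 with PTDSS1i. *WDR45B* held the largest share in all 4 groups, between 49.7% and 72.8%. *ATG9B* went from 3.49% ± 0.743 to 13.9% ± 1.11 of the *ATG9* pair in KYSE30 and from 1.90% ± 0.611 to 7.52% ± 1.54 with the U138MG label, and *ATG9A* held the rest. *ATG9A* rose too, by 0.44 on the log2 scale in KYSE30 (adjusted p = 1.34e-06, edgeR's quasi-likelihood test, adjusted by Benjamini-Hochberg over all tested genes) and by 0.42 in U138MG-labelled libraries (adjusted p = 1.57e-09, the same edgeR test).

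The exons of 5 members, *WIPI1*, *ATG9B*, *SQSTM1*, *MAP1LC3B* and *GABARAPL1*, overlap those of genes on the opposite strand, and the sources used here do not state whether reads were counted by strand, so reads of such pairs may be split or lost. *ATG9B* shares 786 bases, 12.3% of its exon length, with *NOS3*, which encodes endothelial nitric oxide synthase. *NOS3* had 4, 2 and 3 counts in the KYSE30 DMSO libraries and 37, 32 and 47 with PTDSS1i, and in U138MG-labelled libraries it went from 0.958 ± 0.250 to 11.6 ± 0.390 normalized CPM (SD, n = 3). It rose in both lines, with log2 fold changes of 3.60 (adjusted p = 1.48e-08) and 3.58 (adjusted p = 5.32e-17, edgeR), so *ATG9B* and *NOS3* were higher in the same libraries. *WIPI1* shares 828 bases, 24.3% of its exon length, with *ARSG*, a lysosomal sulfatase gene. *ARSG* fell by 2.28 on the log2 scale in KYSE30 (adjusted p = 7.9e-07) and rose by 0.33 in U138MG-labelled libraries (adjusted p = 0.0284, edgeR), beside 3.63 and 2.28 for *WIPI1*. *SQSTM1* shares 1582 bases, 20.7% of its exon length, with *MRNIP*, a DNA repair gene, which fell by 0.51 in KYSE30 (adjusted p = 1.8e-05) and rose by 1.71 in U138MG-labelled libraries (adjusted p = 6.83e-25, edgeR), where its level went from 167 ± 6.03 to 547 ± 22.9 normalized CPM. It also shares 105 bases with *MGAT4B*, a glycosyltransferase gene, which rose in both lines, by 0.78 and 0.97 (adjusted p = 3.01e-11 and 1.32e-19, edgeR). *MAP1LC3B* shares 150 bases with *FBXO31*, which was at -0.07 and 0.13 (adjusted p = 0.406 and 0.0776), *GABARAPL1* shares 329 with *AC115676.1* and *WIPI1* 127 with *AC007780.1*, both at 4 counts or fewer in every library that lists them. The part of these overlaps in the members' values was not tested. *TP53INP1*, *TP53INP2* and *MAP1LC3B2* had no overlapping exons in the annotation.

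**Figure D3:**
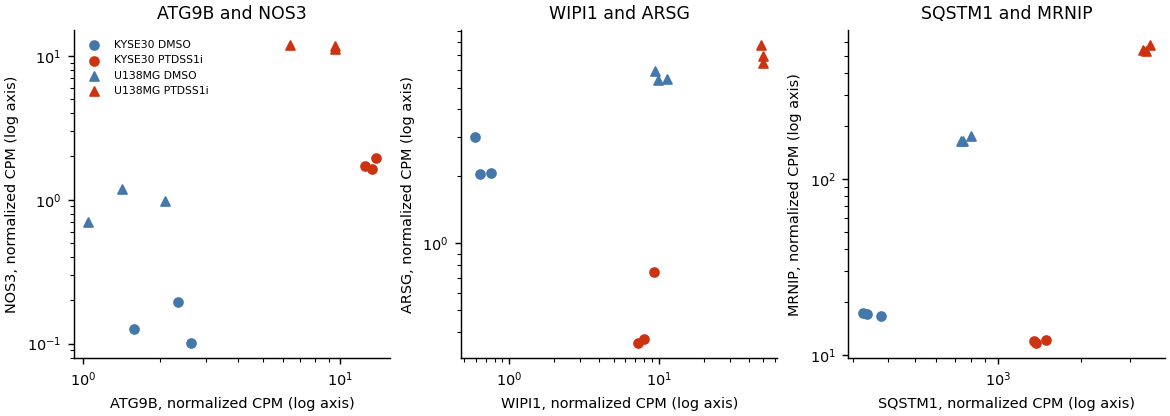
Normalized CPM of 3 members (horizontal, log axis) and of the gene whose exons overlap theirs on the opposite strand (vertical, log axis) in each library, with circles for KYSE30, triangles for the libraries labelled U138MG, DMSO in blue and PTDSS1i in red. *NOS3* is higher with PTDSS1i in both lines, as *ATG9B* is, whereas *ARSG* and *MRNIP* are lower with PTDSS1i in KYSE30 (log2 fold changes of -2.28 and -0.51) and higher in U138MG-labelled libraries (0.33 and 1.71).

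*MAP1LC3B*, *MAP1LC3B2* and *GABARAPL1* encode ATG8 proteins, which are attached to the autophagosome membrane and recruit receptors and fusion factors. *MAP1LC3B* encodes LC3B, the usual marker of autophagosomes. Its KYSE30 values were 59.6, 64.0 and 64.4 normalized CPM with DMSO and 115, 121 and 125 with PTDSS1i, a log2 fold change of 0.94 (standard error 0.05). In U138MG-labelled libraries DMSO replicates had 45.2, 44.4 and 45.7 and PTDSS1i replicates 103, 108 and 106, a log2 fold change of 1.23 (standard error 0.04). The groups did not overlap in either line, and the standard errors were among the smallest of the 8.

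*MAP1LC3B2*, the near-identical copy shown above, was far lower. It had 21, 28 and 22 counts with DMSO and 51, 51 and 58 with PTDSS1i in KYSE30, or 1.03, 1.41 and 0.934 against 2.37, 2.60 and 2.39 normalized CPM. The log2 fold change was 1.13 (standard error 0.22). In U138MG-labelled libraries the counts were 9, 20 and 9 with DMSO and 5, 4 and 7 with PTDSS1i. The summed counts relative to library totals gave a ratio of 0.361. Its exact 95% interval of 0.188 to 0.663 covers counting error only and leaves out the spread between replicates. That interval is not a test, since the gene was selected on this contrast. With the counts of both copies summed, the log2 fold change of *MAP1LC3B* was 0.95 in KYSE30 and 1.22 in U138MG-labelled libraries, close to that of *MAP1LC3B* alone.

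*GABARAPL1* had the smallest upward differences. In KYSE30 it was at 88.5, 101 and 103 normalized CPM with DMSO and at 174, 176 and 185 with PTDSS1i, a log2 fold change of 0.87 (standard error 0.06). With the U138MG label the levels were 136, 133 and 130 with DMSO and 169, 162 and 171 with PTDSS1i. The groups did not overlap, but the log2 fold change was only 0.33 (standard error 0.04), number 4728 of 17666 tested genes by rank.

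The make-up of the ATG8 family with DMSO differed between the tables of the lines, where line, batch and counting cannot be told apart. *GABARAPL1* had the largest share of ATG8 signal per kb in KYSE30, 38.0% ± 1.04 with DMSO and 41.5% ± 0.515 with PTDSS1i (SD, n = 3), followed by *GABARAPL2* at 32.0% ± 0.509 and 26.9% ± 0.599. With the U138MG label *GABARAP* was the largest, at 49.8% ± 0.540 and 43.1% ± 0.830, and *GABARAPL1* stayed near 27%, at 27.1% ± 0.556 and 27.5% ± 0.725. The share of *MAP1LC3B* went from 7.06% ± 0.287 to 13.3% ± 0.269 there, and from 18.8% ± 0.255 to 21.5% ± 0.492 in KYSE30. *MAP1LC3A* had 1 count in all 6 U138MG-labelled libraries together and *MAP1LC3C* none. *GABARAP* and *GABARAPL2* rose in both lines by edgeR's test, by 0.39 and 0.50 on the log2 scale in KYSE30 (adjusted p = 0.000722 and 5.89e-08) and by 0.10 and 0.33 in U138MG-labelled libraries (adjusted p = 0.0163 and 3.18e-07).

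**Figure D4:**
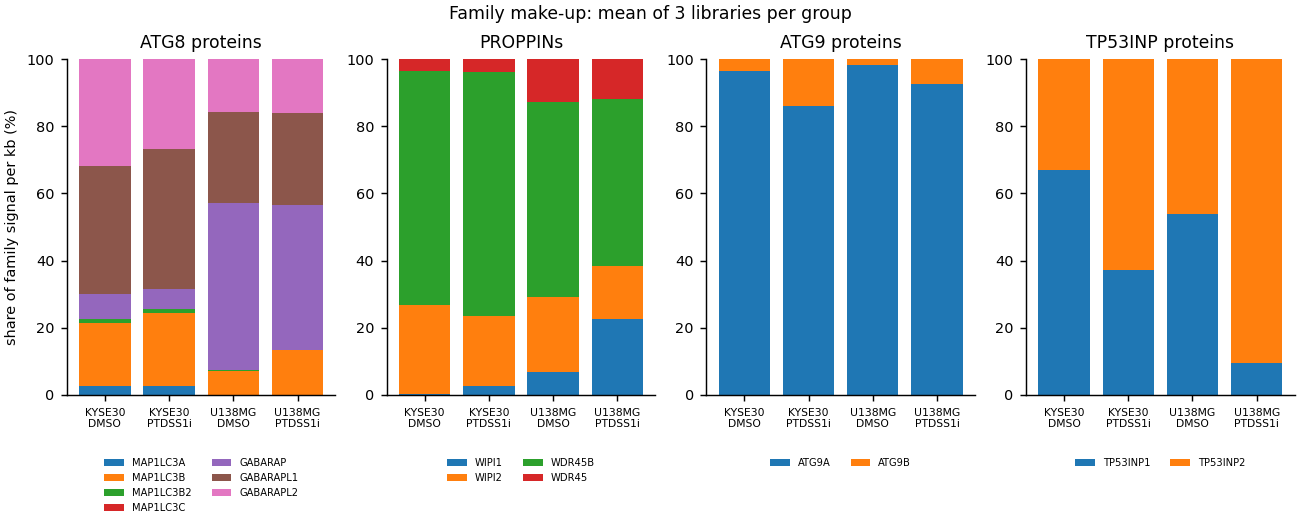
Share of each gene in the summed normalized CPM per kb of exon of its family (vertical axis, percent, stacked bars from 0 to 100, mean of 3 libraries per group) for the ATG8 proteins, PROPPINs, ATG9 proteins and TP53INP proteins. *TP53INP2* goes from 33.0% to 62.7% of its pair in KYSE30 and from 46.0% to 90.4% in the libraries labelled U138MG, and *WIPI1* from 6.86% to 22.6% of the PROPPINs in the latter.

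*SQSTM1* encodes p62, which binds ubiquitinated cargo and ATG8 proteins and is itself degraded with the cargo. It was the most abundant of the 8 per kb of exon in all 4 groups. In KYSE30 it was at 379, 338 and 325 normalized CPM with DMSO and at 1489, 1377 and 1353 with PTDSS1i, a log2 fold change of 2.02 (standard error 0.06). In U138MG-labelled libraries it was at 746, 733 and 801 with DMSO and at 3430, 3348 and 3548 with PTDSS1i, a log2 fold change of 2.18 (standard error 0.04). The fold changes of the lines were thus 4.05 and 4.53, and in these separately normalized tables the U138MG-labelled level was above the KYSE30 level in both treatments. *SQSTM1* made up 64.1% of the summed normalized CPM of the 8 genes with DMSO and 71.1% with PTDSS1i in KYSE30, and 76.6% and 88.4% in U138MG-labelled libraries.

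By normalized CPM per kb of exon, the order of control levels in KYSE30 was *SQSTM1* (45.3), *GABARAPL1* (23.8), *MAP1LC3B* (11.8), *TP53INP1* (3.89), *TP53INP2* (1.88), *MAP1LC3B2* (0.636), *ATG9B* (0.341) and *WIPI1* (0.194), and no neighbours overlapped. In U138MG-labelled controls *SQSTM1*, *GABARAPL1* and *MAP1LC3B* also led, at 99.3, 32.5 and 8.48, while *TP53INP1* (4.50) overlapped *TP53INP2* (3.84) and *MAP1LC3B2* (0.321) overlapped *ATG9B* (0.238). With PTDSS1i *TP53INP2* was the third in both lines, at 32.6 and 25.1 per kb, ahead of *MAP1LC3B* at 22.7 and 19.9. *TP53INP1* was the fifth in KYSE30 at 19.4 per kb and the sixth in U138MG-labelled libraries at 2.68. No neighbouring ranges overlapped in the treated groups.

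The other autophagy genes were counted by the test that the members do not have. Of 57 other autophagy genes tested in KYSE30, 40 rose and 6 fell at an adjusted p under 0.05 by edgeR, against 30.1% higher and 32.0% lower among all tested genes, with a median log2 fold change of 0.44. Of 56 tested in U138MG-labelled libraries, 27 rose and 8 fell, against 33.9% and 33.6% of all tested genes, with a median of 0.09. Scaling changes the latter counts, to 23 higher and 18 lower with library totals alone and to 23 and 19 with upper-quartile scaling. Over all genes, 4927 were higher and 5238 lower in KYSE30 and 5990 higher and 5927 lower with the U138MG label. With library totals alone the splits were 3932 to 6460 and 4539 to 7680, and with upper-quartile scaling the U138MG-labelled split was 4545 to 7691. Library totals shifted the median log2 fold change by -0.11 in KYSE30 and -0.15 with the U138MG label, and upper-quartile scaling by -0.15 in the latter. In bulk RNA, more transcript per cell and more cells of an expressing kind cannot be told apart.

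Among the genes that start autophagosomes, 5 of 8 for the ULK1 complex, *ATG9A* and ATG2 rose and 1 fell in KYSE30, and 4 of 8 rose and 1 fell with the U138MG label. *ULK1*, the starting kinase, rose by 0.89 in KYSE30 (adjusted p = 1.62e-11, edgeR) and had a log2 fold change of 0.05 in U138MG-labelled libraries (adjusted p = 0.363). *ATG101*, which stabilises that complex, rose by 0.61 and 1.11 (adjusted p = 1.16e-08 and 8.77e-17). For the PI3K complex and early membrane proteins, 9 of 11 rose and 1 fell in KYSE30, and 8 of 11 rose and none fell with the U138MG label. The largest change was in another gene in each line. *ZFYVE1*, whose product marks the ER sites where autophagosomes form, rose by 1.48 in KYSE30 (adjusted p = 1.31e-13) and was at 0.04 in U138MG-labelled libraries (adjusted p = 0.614). *VMP1*, an ER lipid scramblase, was at 0.09 in KYSE30 (adjusted p = 0.217) and rose by 1.19 with the U138MG label (adjusted p = 2.14e-20). These differences between lines were not tested. Beside both lists, 30.1% of all tested genes rose and 32.0% fell in KYSE30, and 33.9% and 33.6% with the U138MG label.

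All 3 other PROPPINs rose in KYSE30 and 2 of 3 with the U138MG label, by 0.26 to 0.73 on the log2 scale in KYSE30. The conjugation machinery was mixed, with 4 of 11 genes higher and 3 lower in each line. This was close to all tested genes, at 30.1% higher and 32.0% lower in KYSE30 and 33.9% and 33.6% with the U138MG label. *ATG4A*, a protease that trims ATG8 proteins, rose by 0.85 and 0.60 (adjusted p = 1.81e-07 and 0.000111), and *ATG16L1*, part of the conjugating complex, by 0.55 and 0.57 (adjusted p = 3.76e-07 and 4.58e-09, edgeR). The related protease gene *ATG4C* fell by 0.79 in KYSE30 (adjusted p = 4.26e-06) and was at -0.16 with the U138MG label (adjusted p = 0.105, edgeR). *ATG16L2* fell by 0.35 and 0.52 (adjusted p = 0.00826 and 4.96e-06, edgeR).

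Of 14 other autophagy receptors, 11 rose and 1 fell in KYSE30, with a median log2 fold change of 0.61, and 4 rose and 3 fell with the U138MG label, with a median of -0.03. *OPTN*, *BNIP3* and *BNIP3L*, all receptors for damaged mitochondria, rose by 1.95, 1.93 and 1.12 in KYSE30 (adjusted p = 5.82e-12, 3.65e-17 and 2.57e-14) and had log2 fold changes of 0.06, -0.27 and -0.03 in U138MG-labelled libraries, none called (adjusted p = 0.308, 0.167 and 0.745). There the ER receptor *CCPG1* rose by 1.21 (adjusted p = 7.14e-19) and the ER receptor *RETREG1* fell by 1.13 (adjusted p = 5.6e-14). *RETREG1* also fell by 0.56 in KYSE30 (adjusted p = 0.00124), where *CCPG1* rose by 0.63 (adjusted p = 0.000262, edgeR). *SQSTM1*, the receptor among the members, was 4.05-fold higher in KYSE30 and 4.53-fold higher with the U138MG label. For autophagosome fusion, 5 of 7 genes rose and none fell in KYSE30, and 3 rose and 1 fell with the U138MG label. *PLEKHM1*, an adaptor of lysosome fusion, rose by 0.69 and 1.14 (adjusted p = 5.08e-10 and 1.08e-17). Among all tested genes 30.1% rose and 32.0% fell in KYSE30, and 33.9% and 33.6% with the U138MG label. The receptor counts with that label, 4 and 3 of 14, were below both shares.

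**Figure D5:**
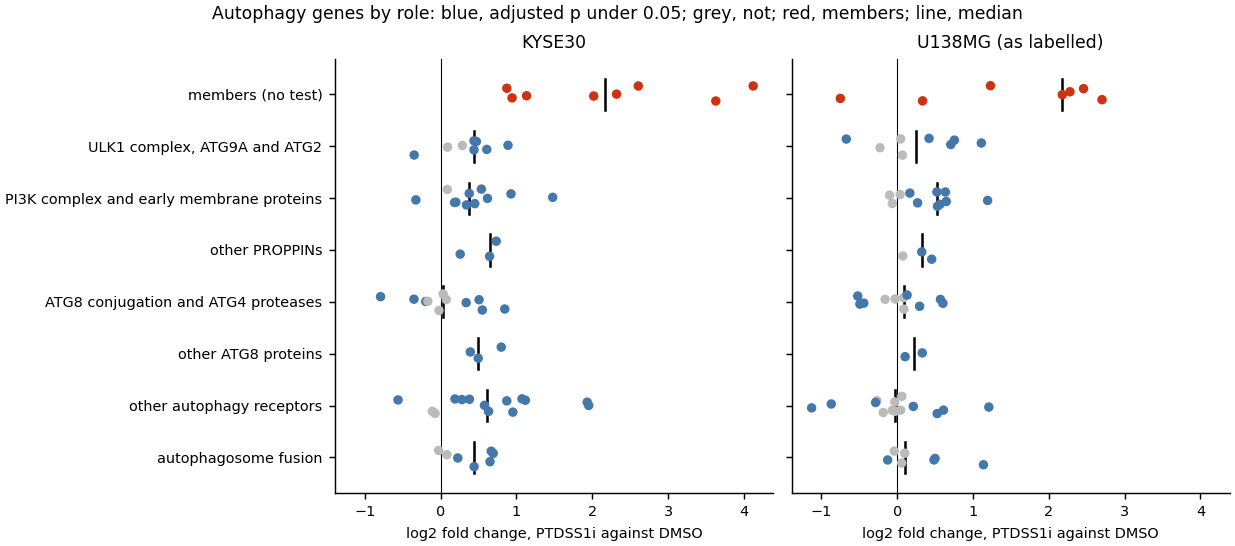
Log2 fold change of PTDSS1i against DMSO (horizontal axis) for the members (red, no test) and for other autophagy genes by role, in KYSE30 and in the libraries labelled U138MG, with blue for an adjusted p under 0.05, grey for the rest, vertical spread only to separate points, and a line at each median. The median of the members is 2.17 and 2.18, and that of the other receptors 0.61 in KYSE30 and -0.03 with the U138MG label.

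Regulators of autophagy genes were read beside the members. Of 9 transcription factors, 6 rose and 3 fell in KYSE30, and 5 rose and 3 fell with the U138MG label, with medians of 0.86 and 0.89. *DDIT3*, a factor of ER stress, rose by 2.03 and 3.37 (adjusted p = 7.66e-14 and 5.13e-24), *ATF4*, its upstream factor, by 1.06 and 0.97 (adjusted p = 1.03e-13 and 1.01e-19), and *FOXO3* by 1.33 and 0.98 (adjusted p = 2.3e-14 and 1.82e-20, edgeR). Each of the 3 passed the test in both lines. For these factors and the mTORC1 list that follows, the shares over all tested genes were 30.1% higher and 32.0% lower in KYSE30. With the U138MG label they were 33.9% and 33.6%. Of 12 genes of mTORC1, the kinase complex that holds autophagy back, and its regulators, 5 rose and 4 fell in KYSE30 and 6 rose and 5 fell with the U138MG label. *SESN2*, an inhibitor of mTORC1, rose by 0.86 and 1.75 (adjusted p = 2.59e-09 and 2.23e-18), and *DDIT4*, another, by 1.28 and 0.70 (adjusted p = 3.57e-13 and 0.00583). With the U138MG label, the inhibitor *SESN3* fell by 1.52 (adjusted p = 7e-22) and the inhibitor *DEPTOR* had a log2 fold change of -1.60 (adjusted p = 1.76e-08), while in KYSE30 *DEPTOR* rose by 1.16 (adjusted p = 4.44e-10) and *SESN3* was at 0.06 (adjusted p = 0.749, edgeR).

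Since *TP53INP1* is a p53 target, other p53 targets were listed. Of 21 tested in KYSE30, 13 rose and 6 fell, with a median log2 fold change of 0.44, and of 22 with the U138MG label 16 rose and 6 fell, with a median of 0.77. *GDF15*, a stress cytokine, rose by 3.71 and 6.79 (adjusted p = 7.57e-18 and 1.21e-34), *CDKN1A*, the cell cycle inhibitor p21, by 1.59 and 0.94 (adjusted p = 2.81e-16 and 5.17e-17), and *PMAIP1*, which promotes apoptosis, by 1.69 and 1.09 (adjusted p = 1.68e-15 and 1.42e-15, edgeR). Among those that fell, *DDB2* and *FDXR*, chosen after their values were seen, fell by 0.88 and 0.79 in KYSE30 (adjusted p = 8.13e-11 and 4.66e-10) and by 1.10 and 1.26 with the U138MG label (adjusted p = 8.59e-09 and 2.22e-15, edgeR). *TP53INP1* was at 59.5% of its control level in the latter. Beside the counts of p53 targets, 30.1% of all tested genes rose and 32.0% fell in KYSE30, and 33.9% and 33.6% with the U138MG label.

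Genes whose log2 normalized CPM followed that of a member most closely over the 12 libraries were named by Pearson's r among 10206 genes. These r describe points that share 2 lines and 2 treatments and have no p. Among those closest to *TP53INP2* were *BAZ2A* (r = 0.996) and *ACSS2* (0.992), and *WIPI1* was closest to *TMEM87B* (0.996), *AFF4* (0.995) and *HMGCS1* (0.995). *HMGCS1* encodes an enzyme of sterol synthesis and *ACSS2* makes acetyl-CoA. Their log2 fold changes were 3.51 and 3.52 in KYSE30 and 2.31 and 2.86 with the U138MG label. Those of *BAZ2A* (0.58 and 0.45 in the 2 lines), *TMEM87B* (0.61 and 0.40) and *AFF4* (0.72 and 0.47) were far smaller, as r does not measure the size of a response. *TP53INP1* was closest to *FAM229A* (0.988), *LIG4* (0.986) and *TMEM59* (0.984). All had a positive log2 fold change in KYSE30 and a negative one in U138MG-labelled libraries, a pattern that their choice by r favours. *ATG9B* was closest to *NFIL3* (0.980), *MAP1LC3B* to *COQ10B* (0.994), *GABARAPL1* to *CPEB2* (0.989) and *SQSTM1* to *PCDHGC3* (0.995). *MAP1LC3B2* was not tested in both lines and has no such list.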

How the data were processed

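Poly-A RNA of 12 samples (2 lines, 2 treatments, 3 replicates) was measured, and the deposited files are, for each line, raw counts of whole reads per gene, not normalized by the authors. The submitters' processing notes name Trimmomatic, STAR, featureCounts and hg38 without versions or roles, and the annotation and use of strand are not given in the sources used here. Genes were joined by Ensembl identifier without its version, and the labels gave groups and replicate numbers. The members and the gene lists were chosen with earlier results of these data known.

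Counts were analysed within each line in R 4.3.3 with edgeR 4.0.16: filterByExpr (minimum count 10, minimum total 15), TMM scaling and the robust quasi-likelihood test, with p adjusted by Benjamini-Hochberg over 16389 and 17666 genes, called at an adjusted p under 0.05. Standard errors of log2 fold changes came from the same fit. An exact permutation test of 3 against 3 cannot give a p under 0.1. The filter kept 99.9% of the counts. Levels per kb use GENCODE 29 exon lengths, which are not known to be the authors' annotation. Every pair of replicates differed beyond sampling noise (chi-square per degree of freedom at least 2.29), and the biological coefficient of variation was 0.0549 in KYSE30 and 0.0451 with the U138MG label. Total counts were 18800932 to 25233442 and 19141002 to 26514658, and intervals and floors cover counting error only.

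In each list and line, up to 3 genes were named by the largest absolute log2 fold change among those called with a mean of at least 5 normalized CPM. Also named were the remaining family members, genes with exons overlapping a member, and the 3 genes of highest Pearson's r per member, of which not every gene is reported here. The test was tried on simulated counts with 200 changed genes and a single dispersion for all genes. In KYSE30 it recovered 84 of 100 genes changed by 0.5 and 97 of 100 changed by 1 on the log2 scale. That was over 16175 genes with 8 false calls, and with the U138MG label 85 and 95 over 17337 genes with 7. These rates need not hold for the real counts, where far more genes were called and dispersion was not held equal. Alternatives were library totals alone, upper-quartile scaling, DESeq2 1.42.0, other filters, a replicate block, each library left out, and the summed *MAP1LC3B* copies. Promoters are from RefSeq, GRCh38.p14. No protein sequences were used here.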

Additional observations from a re-analysis of the deposited data

Results flagged for a closer look

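For 11 genes named in the text, the PTDSS1i libraries lay entirely to 1 side of the DMSO libraries in KYSE30 and entirely on the other side in the libraries labelled U138MG. In each case the difference between the lines was not tested, and line and batch cannot be told apart. Above in KYSE30 and below with the U138MG label held for 7.28% of the 13990 genes tested in both lines. The share for the reverse pattern was not computed. Other listed genes also separated in opposite directions, so the 11 are not a full count. *TP53INP1* had a log2 fold change of 2.32 in KYSE30 and -0.75 with the U138MG label, a difference of -3.07. For *MAP1LC3B2* the ratio of summed counts with the U138MG label was 0.176 of that in KYSE30, with 16 and 38 counts behind the former.

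Outside the members, the mTORC1 inhibitor *DEPTOR* had 1.16 and -1.60, a difference of -2.76. The ER receptor *CALCOCO1* had 1.07 and -0.87, a difference of -1.94, and the fusion protein gene *VAMP8* had 0.65 and -0.13, a difference of -0.777. The transcription factor gene *TFEB* had 0.86 and -0.89, a difference of -1.75. Of the genes overlapping a member, *ARSG* had -2.28 and 0.33, a difference of 2.61, and *MRNIP* had -0.51 and 1.71, a difference of 2.22. *FAM229A*, *LIG4* and *TMEM59* had differences of -1.18, -0.79 and -0.88. They were named for their likeness to *TP53INP1* over these same libraries, so their opposite directions go with that choice.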

How the results depend on the processing

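No member's fold change turned its direction under any alternative run, and the number with a log2 fold change over 1 was 6 in KYSE30 and 5 with the U138MG label in every setting and with each library left out. In U138MG-labelled libraries the log2 fold change ran from -0.90 to -0.62 for *TP53INP1*, from 0.19 to 0.37 for *GABARAPL1* and from 2.26 to 2.76 for *ATG9B* over all alternatives but the fit with no filter. Without that filter *MAP1LC3B2* had a log2 fold change of -1.27 (standard error 0.59) with the U138MG label. The other autophagy genes called lower with that label were 8, but 18 with library totals alone and 19 with upper-quartile scaling, both of which lower the median of all genes. All other counts of calls stayed within 1.5 times. With each library left out, other autophagy genes higher and lower numbered 39 to 41 and 4 to 6 in KYSE30, and 26 to 29 and 7 to 9 with the U138MG label.

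Libraries with the same replicate number shared little deviation from their group means over all tested genes. Same-numbered DMSO and PTDSS1i libraries had correlations of 0.0754, 0.0721 and 0.0204 in KYSE30 and 0.00881, -0.00288 and 0.0484 with the U138MG label. This does not show whether the samples were paired by design. With the replicate number as a block, 5081 genes were higher and 5377 lower in KYSE30, and 6020 and 5920 with the U138MG label. Under that block, other autophagy genes numbered 41 higher and 6 lower, and 27 higher and 8 lower. Depth limits *MAP1LC3B2*, with at most 58 counts in a library, and *WIPI1* in KYSE30 controls, with 13 to 15.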

Other observations

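*TFEB*, the factor best known for raising lysosome and autophagy genes, was chosen here after its values were seen. It rose from 3.48 ± 0.675 to 6.27 ± 0.356 normalized CPM in KYSE30 (SD, n = 3, adjusted p = 3.14e-05, edgeR) and fell from 7.42 ± 0.705 to 4.00 ± 0.162 in the libraries labelled U138MG (adjusted p = 3.19e-06, edgeR). Its relative *TFE3* rose in both, by 0.79 and 0.89 on the log2 scale (adjusted p = 7.05e-10 and 1.17e-16, edgeR), and was also chosen after its values were seen. Whether the *TFEB* response differs between the lines was not tested.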
